A study of Mus musculus with 391 samples.

Results

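The genes described here are 9 signalling genes of immune receptors and their phosphoinositide branch: Tyrobp, Syk, Lyn, Btk, Plcg2, Inpp5d, Pik3ap1, Themis2 and Lcp2. They were chosen by symbol, and all 9 were found among the 56941 genes of the count table. The study sequenced single cells of the adult mouse brain, taken from dissociated vascular fragments and sorted into plates for Smart-seq2, a full-length RNA-seq method without molecular identifiers. Of 391 cells, 280 are labelled microglia and 111 endothelial, the latter coded CP-EC in the deposited cell table. The labels give no strain, sex, treatment or age beyond adult, and tie no cell to an animal, so each class counts as 1 sample and no test between classes was made. What each class would vary by between animals is therefore unknown. Intervals below are exact 95% intervals that cover counting error only, because reads without molecular identifiers are not independent molecules.

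An immune receptor without a signalling tail of its own pairs with an adaptor such as Tyrobp, whose ITAM, a tyrosine-based activation motif, is phosphorylated by a Src family kinase such as Lyn. Syk docks on the phosphorylated ITAM and, through scaffolds such as Lcp2 and the kinase Btk, switches on the phospholipase Plcg2, which splits a membrane phosphoinositide and releases calcium. In parallel, Pik3ap1 recruits PI3-kinase, and Inpp5d removes the phosphate that PI3-kinase adds. In brain macrophages this chain is known best for serving Trem2, Csf1r and Fc receptors.

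A cell of the microglia class held a median of 146506 gene reads and one of the endothelial class 174345. Levels are in CPM, a gene's reads scaled to a common total of gene reads, here summed over each class, and the label markers fell apart as follows. In the microglia and endothelial class respectively, Csf1r reached 4524 and 17.0 CPM, C1qa 3472 and 4.49, and Cx3cr1 2067 and 5.20. Pecam1 reached 60.1 and 2597 CPM, Kdr 4.82 and 2888, and Cldn5 24.5 and 263. The microglia label covers more than parenchymal microglia, as the clusters described further on show. The number codes that open the column names are taken here as 4 plates: A and B hold 133 and 147 microglia-class cells beside 7 and 10 endothelial cells, whereas C and D hold 50 and 44 endothelial cells only.

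All 9 genes had a higher pooled level in the microglia class than in the endothelial class. At 4-fold or more on the log2(CPM + 1) scale, 8 of 9 were higher there and Lyn fell between, with a median log2 ratio over the 9 of 6.86. Among all 14989 genes at 1 CPM or more in either class, 2989 (19.9%) were 4-fold or more higher in the microglia class, 1761 (11.7%) were higher in the endothelial class, and the median log2 ratio was 0.36. Within plates A and B, which hold both classes, 9 of 9 passed 4-fold. There, however, 46.5% and 48.4% of all genes passed, and the median of all genes was 1.73 and 1.87, beside only 7 and 10 endothelial cells.

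Tyrobp, the ITAM adaptor also named DAP12, stood apart from the other members. It measured 1652 CPM in the microglia-class cells of plate A and 1238 in those of plate B, with 1384 (1374 to 1395) pooled. In endothelial cells it measured 4.16, 3.30, 14.6 and 0.342 CPM on plates A to D. The plates of the classes did not overlap, and the pooled ratio was 193-fold (165 to 228). Every one of the 280 microglia-class cells held a Tyrobp read, from 31.5 CPM in the lowest cell through a median of 1420 to 5879 in the highest. Its coefficient of variation (CV, SD over mean) across cells was 0.52, against a median of 1.07 for the 149 genes within 2-fold of its level, of which 1.34% had a lower CV.

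The kinases came next in the chain. Lyn, a Src family kinase that phosphorylates ITAMs and inhibitory motifs alike, was abundant in both classes. It measured 577 and 468 CPM in microglia-class cells of plates A and B, and 65.5, 62.2, 205 and 85.6 in endothelial cells of plates A to D. The lowest microglia-class plate thus lay above the highest endothelial plate, and the pooled ratio of 506 to 135 CPM was 3.74-fold (3.60 to 3.89). Without plate C the log2 ratio of Lyn was 2.65 instead of 1.90, and without the cell richest in Lyn of each class it was 2.19, both past 4-fold. Over single microglia-class cells Lyn ranged from 0 through a median of 70.5 to 2626 CPM.

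Syk, the tyrosine kinase that binds phosphorylated ITAMs, measured 153 and 137 CPM in microglia-class cells of plates A and B. In endothelial cells it had 5 reads, all on plate D, or 0.234 CPM, and the pooled ratio was 609-fold (261 to 1875). The median microglia-class cell held no Syk read, while the highest reached 2624 CPM. Btk, a Tec family kinase that acts on phospholipase C gamma, measured 67.1 and 81.8 CPM on the same plates. Not 1 Btk read was found in the 111 endothelial cells. Against a floor of 3 reads over the endothelial class, Btk was 545-fold higher in microglia-class cells. The counting interval of the ratio, which has no upper end, began at 443-fold. Btk too was at 0 in the median microglia-class cell, and its highest cell reached 2320 CPM.

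Plcg2, the phospholipase of the chain, measured 111 CPM on plate A and 173 on plate B in the microglia class. Endothelial cells had 8 Plcg2 reads spread over 5 cells, or 0.375 CPM, a 403-fold ratio (204 to 934). The median microglia-class cell held none and the highest 2851 CPM. Lcp2, the scaffold also named SLP-76, measured 322 and 297 CPM in the microglia class and 0.187 in the endothelial class, where it had 4 reads in 4 cells. Its microglia-class cells ran from 0 through a median of 11.4 to 4369 CPM. Exons of Lcp2 and Lyn each overlap an antisense gene over 6.32% and 6.09% of their exonic bases, and reads of such partners cannot be told apart without strand; the partner of Lcp2 had 19 reads in the microglia class against 14519 for Lcp2.

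Themis2, a scaffold that binds Grb2 and Vav proteins, was nearly missing from endothelial cells. It measured 491 and 421 CPM in microglia-class cells of plates A and B, and 1 read in all endothelial cells. That read gave 0.0468 CPM and a ratio of 9511 (1707 to 375669). Pik3ap1, the PI3-kinase adaptor also named BCAP, had a similar pattern, with 261 and 311 CPM on plates A and B, 1 endothelial read and a ratio of 6274 (1126 to 247835). Both ratios rest on 1 read, fewer than the floor used for Btk, so the 3 genes were not ranked against each other. Single microglia-class cells held up to 5830 CPM of Themis2 and 5166 of Pik3ap1, with medians of 14.0 and 4.36.

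Inpp5d, the phosphatase also named SHIP1 that opposes PI3-kinase, was the second member read well in both classes. It measured 455 and 589 CPM in microglia-class cells of plates A and B and 19.7, 18.9, 70.9 and 114 in endothelial cells of plates A to D. The plates did not overlap, and the pooled ratio of 542 to 81.0 CPM was 6.69-fold (6.37 to 7.02). Over single microglia-class cells Inpp5d ranged from 0 through a median of 217 to 4217 CPM.

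**Figure D1:**
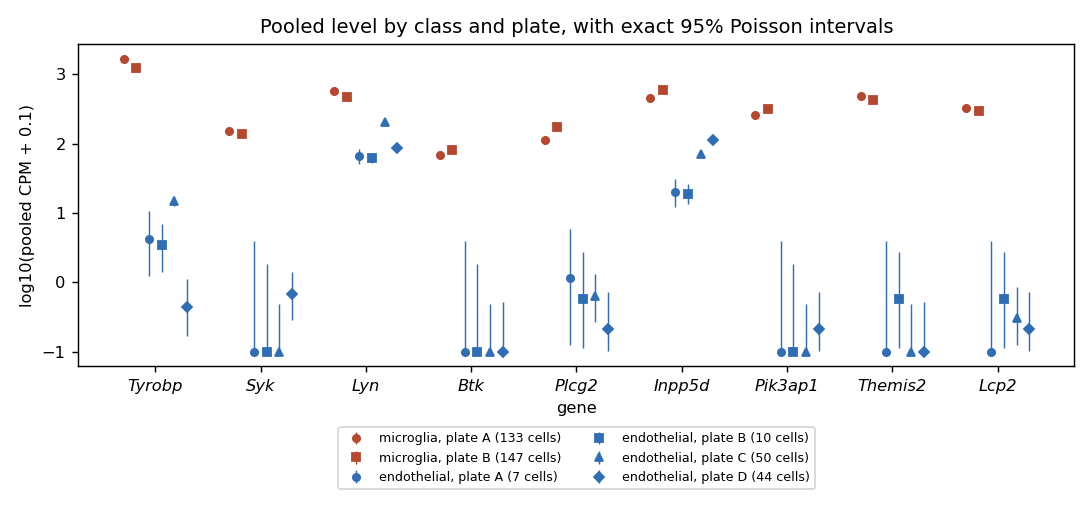
Pooled level of the 9 genes on a log10(CPM + 0.1) axis for each class and plate, with exact 95% Poisson intervals; red marks the microglia class and blue the endothelial class, and marker shapes give the plate. The 6 values of Lyn and of Inpp5d lie within 2 log10 units, whereas endothelial values of Syk, Btk, Plcg2, Pik3ap1, Themis2 and Lcp2 lie near or at 0 CPM (drawn at -1).

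Levels were compared between genes only as CPM per kilobase of exon (GENCODE M21, GRCm38). In the microglia class Tyrobp stood at 2075 CPM per kilobase, 136 times the lowest member, Syk, at 15.2. Between them came Themis2 at 145, Lyn at 124, Inpp5d at 71.2, Lcp2 at 68.5, Pik3ap1 at 52.7, Plcg2 at 35.1 and Btk at 24.3. Counting intervals of neighbours did not overlap, but the ranges over plates A and B did for Themis2 and Lyn, for Inpp5d and Lcp2, and for Plcg2 and Btk. With the length of the longest transcript instead, Lyn came before Themis2 and the other places were kept. In the endothelial class Lyn led at 33.3 CPM per kilobase, ahead of Tyrobp at 10.7 and Inpp5d at 10.7. That Tyrobp value rests largely on 1 cell of plate C with 118 of the 153 reads. Without this cell Tyrobp fell from 7.16 to 1.65 CPM in the class, before scaling by length. Tyrobp thus exceeded each member kinase and the phospholipase per kilobase in the microglia class, but not Lyn in the endothelial class.

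Promoter sequences were available for 7 of the 9 genes from RefSeq (GRCm38.p6), as 250 bases before each start. The search letters were those of the core bound by PU.1, an ETS factor of myeloid cells: GAGGAA, its extension GAGGAAGT, and GGAAGT, which overlaps both, on either strand. GAGGAAGT occurred in 1 of the 7 genes, Inpp5d, and in 2.44% of all 32851 windows of this length. GAGGAA occurred in Inpp5d, Pik3ap1 and Syk and in 23.3% of windows, and GGAAGT in Inpp5d and Pik3ap1 and in 19.7%. The windows of Inpp5d (chr1:87620062-87620311, plus strand) and Pik3ap1 (chr19:41385103-41385352, minus strand) are shown because they hold matches outside annotated exons, and that of Btk (chrX:134583141-134583390, minus strand) because the gene had no endothelial read and its window holds none of the letters. Capitals mark the matches, and each window ends at the base before the start.
Inpp5d: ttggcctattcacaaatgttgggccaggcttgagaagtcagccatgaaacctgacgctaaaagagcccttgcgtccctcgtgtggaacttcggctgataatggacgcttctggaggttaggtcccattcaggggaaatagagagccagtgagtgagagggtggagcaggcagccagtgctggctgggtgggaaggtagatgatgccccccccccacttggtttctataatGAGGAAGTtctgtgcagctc
Pik3ap1: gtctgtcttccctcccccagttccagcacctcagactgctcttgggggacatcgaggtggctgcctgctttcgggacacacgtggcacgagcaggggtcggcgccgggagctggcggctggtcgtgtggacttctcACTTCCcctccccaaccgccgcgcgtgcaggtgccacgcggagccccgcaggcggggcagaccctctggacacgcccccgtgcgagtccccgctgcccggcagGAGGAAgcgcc
Btk: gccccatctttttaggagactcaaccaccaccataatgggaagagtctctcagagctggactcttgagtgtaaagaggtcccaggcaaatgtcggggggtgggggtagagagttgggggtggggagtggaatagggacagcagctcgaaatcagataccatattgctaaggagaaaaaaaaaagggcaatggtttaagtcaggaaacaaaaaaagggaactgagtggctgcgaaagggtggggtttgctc
The extended match of Inpp5d covers bases 20 to 13 before its start. The GAGGAA match of Syk, at bases 9 to 4, lies within an annotated Syk exon, and that window is not shown. In Pik3ap1 the GAGGAA match covers bases 11 to 6 and the GGAAGT match, on the opposite strand, bases 114 to 109. These are matches of letters, not measured sites. Tyrobp and Lyn had no window, and Lyn was the only member not 4-fold higher in the microglia class. All 7 genes with a window passed 4-fold, so matches could not be compared with the class difference.

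Over single cells of the microglia class, every member but Tyrobp was present in some cells and missing in others. The share of the 280 cells with at least 1 read was 100% for Tyrobp, 78.2% for Inpp5d, 75.7% for Lyn, 66.8% for Lcp2, 63.2% for Themis2, 53.9% for Pik3ap1, 39.3% for Syk, 34.3% for Plcg2 and 29.6% for Btk. With 10 reads or more, taken here as carrying the gene, the shares were 97.5%, 59.6%, 49.3%, 40.0%, 41.8%, 32.1%, 21.1%, 17.5% and 15.4%. Between 40 and 75 cells held 1 to 9 reads of each member except Tyrobp, which had 7 such cells. Cells carrying a gene held much of it: the median among them ran from 275 CPM for Btk to 793 for Themis2 and 1438 for Tyrobp.

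Each cell was also thinned to 71000 reads, a depth that 34 cells of the microglia class and none of the endothelial class fell short of. The share with a read was 100% for Tyrobp, 74.4% for Inpp5d, 69.9% for Lyn, 35.0% for Syk and 24.8% for Btk. All 9 members kept their order by this share. CVs over cells were 1.35 for Lyn, 1.53 for Inpp5d, 1.82 for Themis2, 1.92 for Lcp2, 2.37 for Pik3ap1, 2.64 for Syk, 2.91 for Plcg2 and 3.32 for Btk. For these 8 genes, 23.2% to 67.6% of the genes within 2-fold of the same level had a lower CV, which placed none of them at an end of that range. The tenth of cells richest in a gene held 19.9% of all Tyrobp reads but 89.0% of Btk reads, against a median of 86.5% over the 4326 genes at 50 CPM or more.

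**Figure D2:**
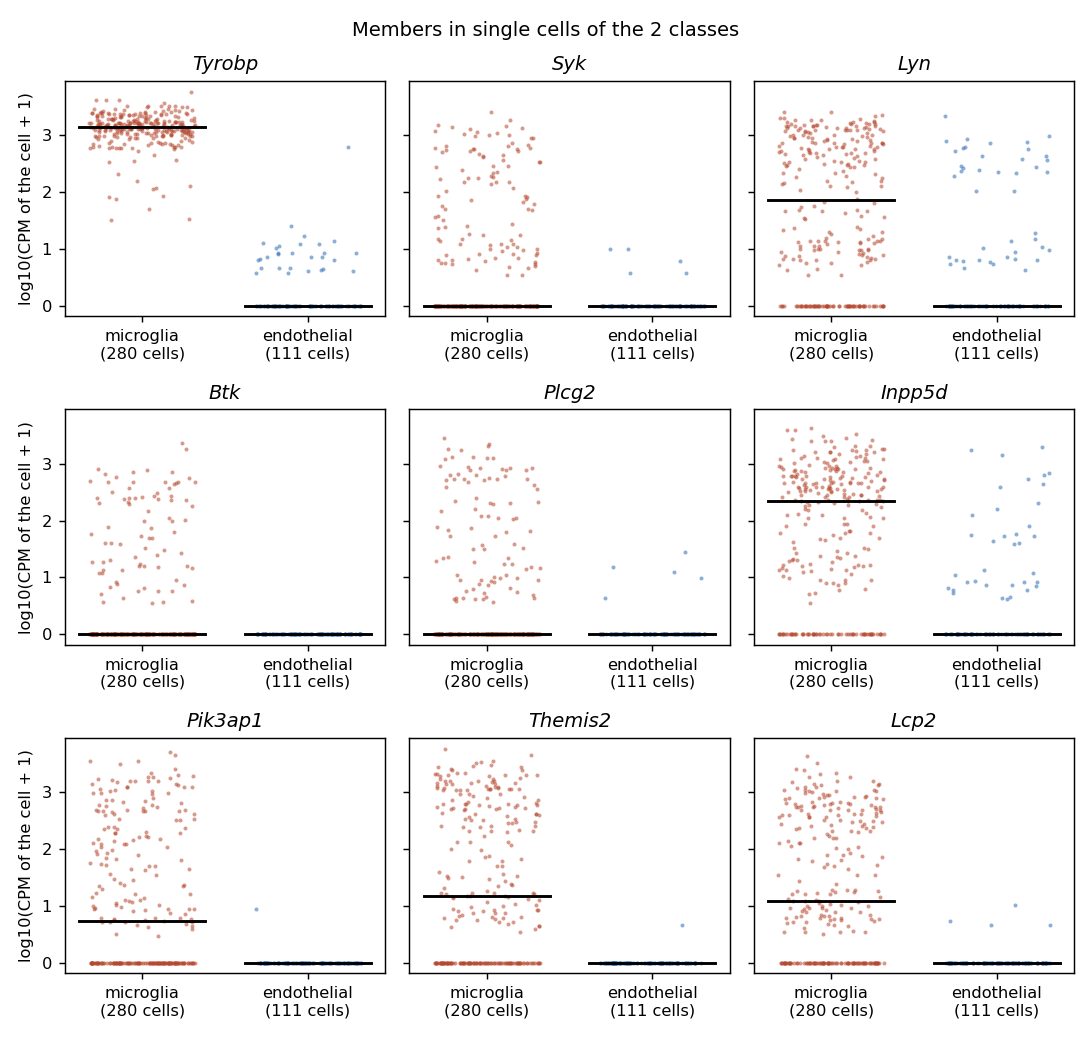
Level of each gene in single cells, as log10 of the cell's CPM plus 1; each point is 1 cell, red for the 280 microglia-class and blue for the 111 endothelial cells, and black bars are medians. Tyrobp fills a narrow band in the microglia class (31.5 to 5879 CPM), while cells of the other genes spread from 0 to above 2000 CPM; Lyn and Inpp5d alone show more than 1 endothelial cell at 10 reads or more.

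In endothelial cells, 44 of 111 (39.6%) held a Lyn read and 25 (22.5%) at least 10, and 36 (32.4%) held an Inpp5d read and 15 (13.5%) at least 10. Tyrobp reads occurred in 29 cells (26.1%), but only 1 cell had 10 or more. That cell, on plate C, held 118 of the 153 endothelial Tyrobp reads and 294 reads of Csf1r, and its summed microglia core level was 2130 CPM against a median of 64.1 over endothelial cells. Without it Tyrobp stood at 1.65 CPM in the class. Each of 6 other members had at most 8 reads, and none of the 111 cells carried one (interval to 3.27%).

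Reads of the 19 microglia core genes gave the level of stray reads in endothelial cells, at a median depth of 174345 reads against 146506 in the microglia class. At the median those genes stood at 0.123% of their microglia-class level. Lyn stood at 26.7% and Inpp5d at 15.0%, above all 19, whereas the other 7 members stood between 0 and 0.517%. Of the 25 endothelial cells carrying Lyn, 19 had no Tyrobp read, and of the 15 carrying Inpp5d, 12 had none. The median summed core level was 76.2 CPM in cells carrying Lyn and 59.0 in the rest. For Inpp5d it was 191 CPM in cells carrying it and 62.5 in the rest, and the part of such reads in the Inpp5d result was not tested. Lyn and Inpp5d were carried together in 6 endothelial cells and at least 1 of them in 34.

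Microglia-class cells carried from 0 to 9 of the members, and 4 at the median. A single cell (0.357%) carried all 9 and 2 cells carried none. In the endothelial class, 76 cells carried none, 29 carried 1 and 6 carried 2. After thinning, the medians were again 4 and 0.

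**Figure D3:**
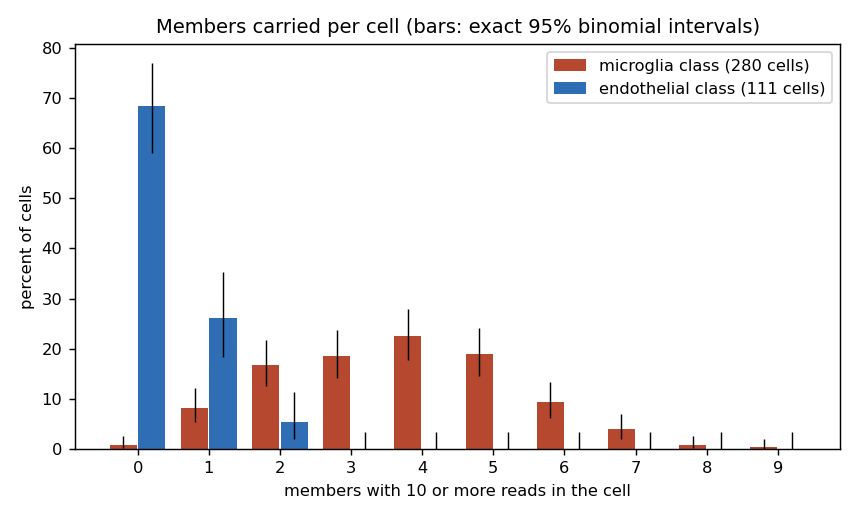
Percent of cells of each class by the number of the 9 genes with 10 reads or more in the cell, with exact 95% binomial intervals. Microglia-class cells (red) centre on 4 genes, and no endothelial cell (blue) lies above 2.

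Read along the chain, Lyn was carried by 49.3% of microglia-class cells, Lcp2 or its relative Blnk by 58.9%, Btk or Tec by 28.6%, and Plcg2 or Plcg1 by 22.9%. Tyrobp without Syk was the state of 214 cells (76.4%), and Syk, Lcp2 and Plcg2 were carried together by 10 (3.57%). In the endothelial class 64 cells (57.7%) carried a phospholipase C gamma, and in all 64 it was Plcg1. These shares are of transcripts read at this depth and set no limit on the proteins present.

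Rank correlations among the members from cell to cell were low. Syk, Btk and Plcg2 had no read in 170, 197 and 184 of the 280 cells, which tie in rank. Pairs of other genes at like levels were not compared, so low values do not show that the levels were unrelated. Over the 36 pairs and 280 cells, Spearman's rho of CPM had a median of 0.05 and ran from -0.15 for Tyrobp and Inpp5d to 0.25 for Lyn and Inpp5d. The Lyn and Inpp5d value was 0.16 on plate A and 0.35 on plate B, and -0.12 in cluster 2 but 0.32 in cluster 3. Cells share library and class, and depth was itself related to the members, with rho of -0.30 for Tyrobp, 0.31 for Inpp5d and 0.26 for Lyn. Among 992 well-read genes, the 2 most like Tyrobp were Itm2b (0.37) and C1qb (0.37), and the gene most like both Lyn (0.34) and Inpp5d (0.36) was Cx3cr1, the fractalkine receptor. Within clusters 3 and 4 the rho of Inpp5d and Cx3cr1 was 0.11 and -0.20. For the other 6 genes the nearest gene reached only 0.22 to 0.25, with Psmd8 for Syk, Lgals9 for Btk, Efhd2 for Plcg2, Lgals3bp for Pik3ap1, Plbd1 for Themis2 and Cd300c2 for Lcp2.

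The microglia class split into 4 clusters when the members and all pathway genes were kept out of the clustering. Cluster 1 (124 cells) was border-associated-macrophage-like: 10 of 14 markers of those cells had reads in 50% of its cells or more, among them Mrc1 at 3336 CPM and F13a1 at 1827. Its markers of that kind summed to 17427 CPM and its parenchymal markers, 7 of 10 of them read as widely, to 2269. Cluster 3 (51 cells) was microglia-like, with 10 of 10 parenchymal markers, such as P2ry12 at 3619 CPM and Sall1 at 508. Cluster 4 (34 cells) was dendritic-cell-like, with 7 of 13 markers, Flt3 at 165 CPM and Cd209a at 2718, by a list partly drawn up with earlier clusters of these cells in view. In cluster 4, 9 of 14 border markers and 7 of 10 parenchymal markers were also read in 50% of cells or more. They summed to 1441 and 276 CPM, against 5924 for the dendritic cell markers. Monocyte markers, 3 of 10 of them read as widely, summed to 4779 CPM. Their median log2 ratio over the other microglia-class cells was 1.85, against 3.65 for the dendritic cell markers. Only dendritic cell markers, 4 of them, stood among the cluster's top 10 genes by fold. Because of how that list was drawn up, this count is no separate support for the name. Cluster 2 (71 cells) kept no name. Median depth rose in the order of clusters 1, 2, 3 and 4 from 124239 to 208770 reads, so shares are given beside thinned ones where they matter.

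Lyn, Inpp5d and Plcg2 were lowest in the border-associated-macrophage-like cluster. In clusters 1 to 4 Lyn measured 208, 633, 848 and 558 CPM, highest in the microglia-like cluster and 4.08-fold (3.93 to 4.24) above its lowest. Inpp5d measured 204, 540, 1043 and 657 CPM, with the same highest and lowest cluster and a 5.11-fold span. On both plates these 2 genes were highest in cluster 3 and lowest in cluster 1, and cells carrying Inpp5d made up 32.7% of thinned cells in cluster 1 and 89.6% in cluster 3. Against all endothelial cells, cluster 1 alone gave log2 ratios of 0.61 for Lyn and 1.32 for Inpp5d, neither past 4-fold.

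Plcg2 measured 55.4, 67.2, 278 and 321 CPM in clusters 1 to 4, a 5.79-fold span. It was highest in the dendritic-cell-like cluster on both plates, and its lowest was cluster 1 on plate A and cluster 2 on plate B. Syk measured 141, 104, 119 and 229 CPM and was likewise highest in cluster 4 on both plates, with a span of 2.20-fold. Themis2 measured 452, 518, 191 and 645.2 CPM, lowest in the microglia-like cluster and highest in cluster 4 on both plates, a 3.38-fold span.

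Pik3ap1 measured 337, 420, 254 and 68.0 CPM. It was lowest in the dendritic-cell-like cluster on both plates, 6.18-fold below its highest, which was cluster 2 on plate A and cluster 1 on plate B. Lcp2 measured 278, 265, 497 and 183 CPM, highest in cluster 3 and lowest in cluster 4 on both plates, 2.71-fold apart. Btk measured 50.6, 116, 70.5 and 85.6 CPM, and neither its highest nor its lowest cluster was shared by the plates. Tyrobp spanned least, from 1596 CPM in cluster 1 to 1067 in cluster 4, or 1.495-fold.

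A span of 4-fold or more between the highest and lowest cluster was thus found for 4 of the 9 genes: Lyn, Plcg2, Inpp5d and Pik3ap1. Over all 6570 genes at 50 CPM or more in a cluster the same held for 49.5%, a share close to that of the members, and over the 15347 genes at 1 CPM or more for 57.4%. At a Leiden resolution of 0.3 the count of members was 2 and at 0.8 it was 5.

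**Figure D4:**
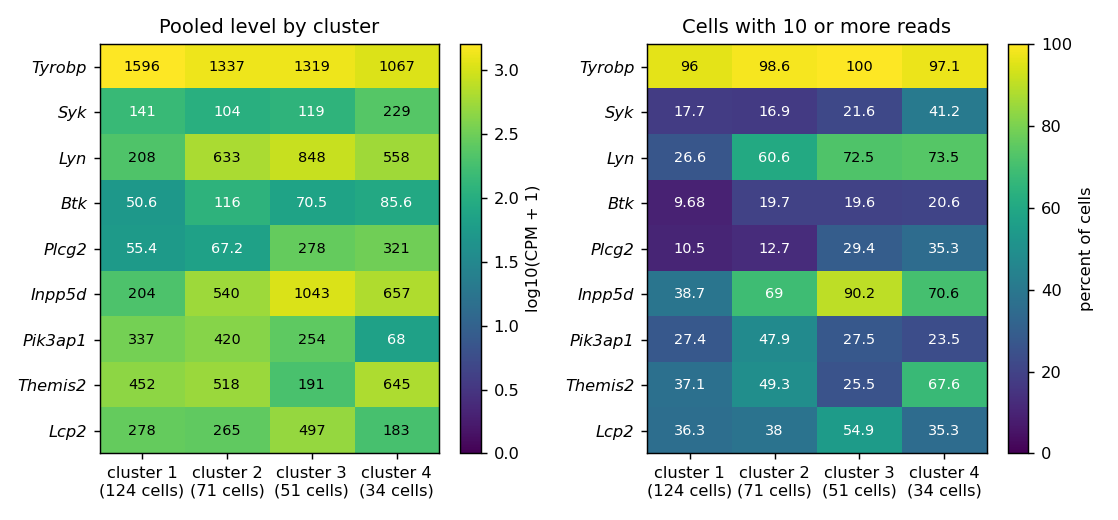
Left, pooled CPM of each gene in the 4 clusters of the microglia class, coloured by log10(CPM + 1); right, percent of cells in each cluster with 10 reads or more. Inpp5d climbs from 204 to 1043 CPM between clusters 1 and 3, and Pik3ap1 falls to 68.0 CPM in cluster 4.

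Close relatives of the members filled some of the same steps. Pooled list counts from here on stand beside 19.9% of all genes higher in the microglia class and 11.7% in the endothelial class. Of 5 measured ITAM adaptors, 5 were higher in the microglia class, led by Tyrobp and by Fcer1g, the Fc receptor gamma chain, at 1466 CPM per kilobase. Fcer1g spanned 1.65-fold over clusters, much as Tyrobp did, but Cd79b, the B cell receptor beta chain, stood at 85.0, 110, 117 and 3.34 CPM in clusters 1 to 4. Cd3d of the adaptor list stood at 3.64 CPM, while 8 of 11 T and NK cell markers, Cd3e among them, had 0 reads in the microglia class. Of 14 measured genes listed as receptors coupled to Tyrobp, 13 were higher in the microglia class and none in the endothelial class. Not all of the 13 pair with Tyrobp directly. They include the receptor kinase Csf1r, which was also used to check the labels, the integrin chain Itgam, and Cd300ld. Trem2 of this list measured 897, 1107, 2212 and 113 CPM in clusters 1 to 4, and Siglech 284, 499, 2327 and 47.0. Fcer1g-coupled receptors were higher in 5 of 7 cases, with Fcgr3 at 1157 against 0.421 CPM. Of 4 genes listed as hemITAM receptors, 2 were higher, Clec7a at 301 against 0.140 CPM and Clec2d at 26.5 against 3.56. Clec2d is a relative without a hemITAM, and Clec1b and Clec9a fell between.

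Among Src family kinases, 4 of 8 were higher in the microglia class, 1 in the endothelial class (Yes1, 5.47 against 65.3 CPM), and Lyn, Fyn and Lck fell between. The log2 ratio of Fyn was -3.26 on plate A and 4.15 on plate B, past 4-fold in opposite directions. Fgr, a Src family kinase of myeloid cells, measured 76.2 CPM in the microglia class and had no endothelial read; it was at 0.393 CPM in cluster 1 and 402 in cluster 4. Both measured Syk family kinases and both measured Tec family kinases were higher in the microglia class. Zap70, the relative of Syk in T cells, stood at 11.1 CPM, was carried by 2 cells and on plate A had a log2 ratio of -0.87. Tec measured 76.0 CPM, beside 76.6 for Btk. Regulators of Src family kinases were higher in 3 of 7 cases, with the phosphatase Ptprc at 658 against 0.562 CPM.

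Phospholipase C gamma showed opposite members by class. Plcg1 measured 48.1 CPM in the microglia class and 542 in the endothelial class, and Plcg2 151 and 0.375. Per kilobase, Plcg2 stood at 35.1 and Plcg1 at 6.12 in the microglia class. By plate, the log2 ratio of Plcg1 came to -4.85 on A and -1.83 on B, so that on plate B it did not pass 4-fold. Of 9 measured genes of this calcium step, 3 were higher in the microglia class and 2, Plcg1 and Stim2, in the endothelial class. Scaffold adaptors were higher in the microglia class in 12 of 18 cases and in the endothelial class in none, with Vav1 at 355 against 0.0936 CPM and Fyb at 548 against 4.12.

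In the lipid branch, of 9 class I PI3-kinase subunits, 3 were higher in the microglia class, namely the leukocyte subunits Pik3cd (146 against 11.2 CPM), Pik3cg (135 against 0.0468) and Pik3r5 (93.4 against 5.48). The regulatory subunit Pik3r3 was higher in the endothelial class, at 78.4 against 0.0842 CPM, and 5 fell between. Within plates A and B, 7 and 6 of the 9 subunits were higher in the microglia class, with medians of 5.67 and 4.08. PI3-kinase docking adaptors were higher in the microglia class in 3 of 6 cases, with Pik3ap1 far ahead and Gab1 at 50.0 against 104 CPM; within plates A and B the log2 ratio of Gab1 was 3.54 and 5.33, and 6 and 4 of the 6 docking adaptors were higher in the microglia class. Among phosphoinositide phosphatases it was 3 of 8, including Inpp5d and Inpp4b, the latter with a log2 ratio of -0.49 on plate A, and 4 and 6 of 8 within plates A and B. Inppl1, the relative of Inpp5d known as SHIP2, measured 9.64 against 40.1 CPM pooled, a log2 ratio of -1.95, but 3.65 and 3.26 within plates A and B. Akt and its downstream genes were higher in 2 of 8 cases, pooled, near the share of all genes, and in 4 of 8 on each of plates A and B. On plate A, 3 of the 8 were higher in the endothelial class, and on plate B 0. Within plates A and B, 46.5% and 48.4% of all genes were higher in the microglia class. The 4 of 8 phosphatases on plate A and the 4 of 8 genes of the Akt list on each plate lie near those shares.

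Inhibitory partners were prominent in the microglia class. ITIM receptors recruit phosphatases such as Ptpn6 and Inpp5d. Of 18 genes listed under that name, 17 were higher in the microglia class, with Sirpa at 1306 against 1.03 CPM. The exception was Pecam1, an endothelial marker. The 17 include Lilra5 and Siglec1, the latter also a border-associated macrophage marker, which are relatives without an ITIM. Dok and SHP inhibitors were higher in 5 of 8 cases, with Ptpn6 at 568 against 0.889 CPM, and the Card9 and protein kinase C group in 7 of 11. Over all 144 measured pathway genes, 91 were higher in the microglia class, 5 in the endothelial class and 48 fell between, with a median log2 ratio of 3.46 against 0.36 for all genes. Within plates A and B, 105 and 111 were higher in the microglia class, beside the high shares of all genes given above.

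**Figure D5:**
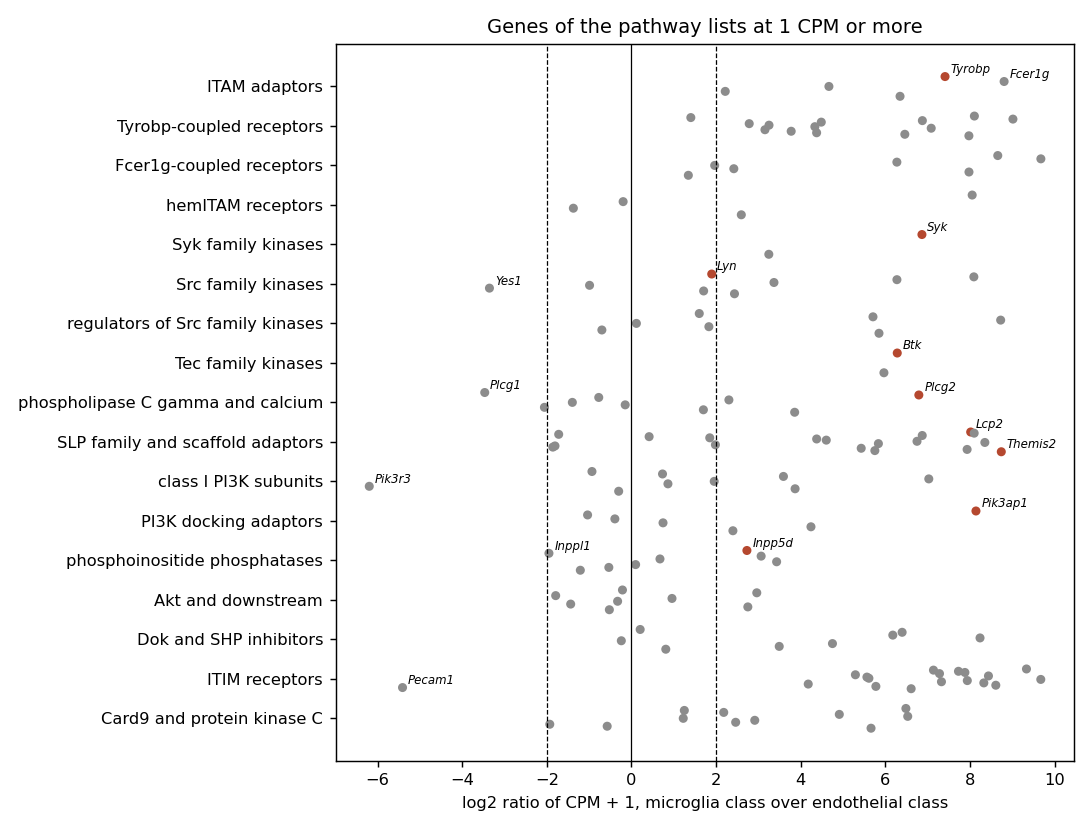
Log2 ratio of CPM + 1, microglia class over endothelial class, for genes of the 17 pathway lists at 1 CPM or more in either class; each point is 1 gene, the members are in red, and dashed lines mark 4-fold. Genes of the ITIM receptor list lie on the microglia side except Pecam1, while PI3-kinase subunits and Akt genes lie on both sides of 0.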

How the data were processed

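The deposited table holds raw counts, whole numbers of reads per gene, which the authors made with featureCounts (Subread 1.4.6-p5) and SAMtools 1.16.1 on build GRCm39, per the submitters' processing notes. Which aligner, annotation or strand setting was used is not given in the sources used here. Classes came from the labels through the deposited cell table. No cell was left out and no doublet caller was run.

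Reads were summed per class and divided by all gene reads, 47508014 in the microglia class and 21361227 in the endothelial class. Genes counted as measured at 1 CPM in either class and as higher at 4-fold, with a pseudocount of 1 CPM, which understates ratios of low genes. Intervals are Poisson, conditional binomial and Clopper-Pearson at 95%. Clusters (scanpy 1.11.5, leidenalg 0.10.2) used 2000 variable genes, 20 principal components, 15 neighbours and resolution 0.5. The functions were tested on simulated data.

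The 9 members, 17 pathway lists and marker lists were chosen with earlier results of these data known. Pathway genes were named as the 3 highest of a list and its extremes by ratio, and like genes as the 2 with the highest rho; a few relatives outside this rule were named after their values were seen. Alternatives were other scalings, filters, plates, clusters and thinning. Some genes of these lists are not reported here.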

Additional observations from a re-analysis of the deposited data

How the results depend on the processing

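The count of members 4-fold or more higher in the microglia class was 8, and 7 to 9 over 16 other settings. It was 9 within plates A and B, without plate C, without the cell richest in each gene, and for clusters 2, 3 and 4 alone, and 7 for cluster 1 alone. No member's log2 ratio changed sign: over 14 settings Lyn ran from 0.61 to 3.12, Inpp5d from 1.32 to 4.89 and the other 7 stayed at 5.36 or more. Median-of-ratios scaling, a shift of -0.04 between the classes, left the count at 8. The median share of microglia-class cells with a read of a member was 63.2%, 56.1% thinned to 71000 reads, 40.0% at 10 reads or more and 37.0% at 10 reads after thinning, the last chosen after seeing the data. The median rho over pairs ran from 0.007 to 0.088 within plates and clusters and after thinning. The number of members spanning 4-fold over clusters was 4, but 2 at resolution 0.3, where fewer clusters were compared, and 3 without cluster 4, a setting added after seeing the data. The pathway count of 91 ran from 91 to 111. No paired analysis was possible because the replicate numbers only name cells in accession order and no test was run; the plates that hold both classes gave the within-plate values. Depth limits the 6 members with 0 to 8 endothelial reads, whose ratios have wide intervals.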
